A study of Mus musculus with 12 samples.

Results

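The 10 genes described here belong to bile acid metabolism and were followed through the livers of mice in 3 groups. They were taken by symbol from the gene table, where all 10 were found among 19252 genes, and all 10 were among the 11376 genes that reached 1 TPM in at least 4 of the 12 libraries. TPM is a gene's share of all transcripts in a library, after division by transcript length and scaled to a fixed total. The genes encode the sterol hydroxylases Cyp7a1, Cyp8b1, Cyp27a1 and Cyp7b1, the reductase Akr1d1, the conjugating enzyme Baat, the transporters Slc10a1 and Abcb11, and the nuclear receptors Nr1h4 and Nr0b2.

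The 12 libraries were made from total liver RNA of C57BL/6 mice, 4 in each of 3 groups. NFD mice ate a normal fat diet and HFD mice a high fat diet. NAC_HFD mice ate the latter and drank water holding N-acetylcysteine at 2 g per litre; this compound is a precursor of cysteine and glutathione. All groups were fed for 14 weeks. The labels also give an age of 8 weeks for every group and do not say at which point it was taken. The labels name 1 liver sample per library and do not say whether each came from its own mouse, so p-values measure the spread between these samples only.

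Hepatocytes make bile acids from cholesterol. The classic route begins with Cyp7a1 and the alternative route with Cyp27a1 and Cyp7b1, and Cyp8b1 sets the share of cholic acid. Bile acids activate FXR, the product of Nr1h4, which induces Nr0b2 (the repressor SHP) and the export pump Abcb11 and lowers transcription of Cyp7a1 and Cyp8b1.

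All libraries carried hepatocyte RNA at high levels: Alb, the serum albumin gene, lay between 22101 and 38257 TPM. Of the 8 cholangiocyte and gallbladder markers 3 reached the test, Sox9, Spp1 and Slc10a2, at 0.83 to 1.68, 12.1 to 20.4 and 4.71 to 18.1 TPM. The defining bile duct genes Krt19, Krt7, Epcam and Cftr stood between 0.01 and 1.08 TPM in every library. The gut genes Fabp2 and Lgals4 had 44.3 to 113 and 10 to 37.6 TPM, and Vil1 0 to 0.32 TPM. Pearson correlations between libraries on the log2(TPM + 1) scale lay between 0.964 and 0.991, and no 2 libraries shared an identical TPM in more than 0.483% of tested genes. TPM keeps no read count, so the depth of each library is unknown. In whole liver, fewer cells of a type and less RNA per cell cannot be told apart.

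The 3 genes with an unadjusted limma p under 0.05 in any comparison were Akr1d1, Cyp8b1 and Abcb11. Bases ahead of their starts are shown because nuclear receptors and HNF4, a liver transcription factor, are known regulators of bile acid genes (RefSeq, build GRCm38.p6, on the gene's strand). For Akr1d1 (chr6:37529923-37529977, plus strand) only the 55 bases outside the annotated gene are shown, and capitals mark both copies of the nuclear receptor half-site AGGTCA, which reads TGACCT on the strand shown. For Cyp8b1 (chr9:121916306-121916555, minus strand) capitals mark the HNF4 core CAAAGTCCA. For Abcb11 (chr2:69342617-69342866, minus strand) capitals mark the half-site, again as TGACCT.
Akr1d1: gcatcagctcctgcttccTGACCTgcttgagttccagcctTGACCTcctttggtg
Cyp8b1: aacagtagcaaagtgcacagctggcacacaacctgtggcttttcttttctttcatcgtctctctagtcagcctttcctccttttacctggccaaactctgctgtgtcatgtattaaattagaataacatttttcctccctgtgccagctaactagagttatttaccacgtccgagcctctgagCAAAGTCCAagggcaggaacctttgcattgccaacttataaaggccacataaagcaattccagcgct
Abcb11: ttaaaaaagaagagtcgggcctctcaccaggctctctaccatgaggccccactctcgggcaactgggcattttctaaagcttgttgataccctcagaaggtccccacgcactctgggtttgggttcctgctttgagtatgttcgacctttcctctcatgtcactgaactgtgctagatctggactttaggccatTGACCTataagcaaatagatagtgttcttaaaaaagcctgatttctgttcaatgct
Both strands of the 250 bases before the start given by each promoter entry were searched. That start can lie inside the annotated gene. For Akr1d1 the bases searched ran on into the gene, and for Nr1h4 they lay within it. The half-site was in 14.0% of 32851 mouse promoters, and at least 2 copies were in 1.36%. CAAAGTCCA was in 0.384% of them. The inverted repeat of the half-site with 1 base between its copies, the form bound by FXR with its partner RXR, was in 0.00609%, and CAAGGTCA, the NR5A2 site, which contains the half-site, in 1.33%. Neither was found as an exact match in the 7 of 10 genes that had a promoter entry. Sites with a changed base were not searched for. In Abcb11 the marked TGACCT directly follows aggccat, where the inverted repeat has AGGTCA and a spacer, a difference of 1 base. The half-site was also in Nr1h4 and at 1 start of Slc10a1 but not at another, and Cyp8b1, Cyp27a1 and Nr0b2 had none. A match is a description of the sequence.

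Across the 3 comparisons none of the 10 genes passed an adjusted p of 0.05 (limma, Benjamini-Hochberg over 11376 genes). In HFD against NFD 0 of 10 were called, against 2.78% of all genes, and 2 of 10 had an unadjusted p under 0.05, against 19.1%. In NAC_HFD against HFD 0 of 10 were called, against 0% of all genes, and 1 of 10 had an unadjusted p under 0.05, against 16.4%. Comparing NAC_HFD with NFD, 0 of 10 were called, against 5.28%, and 3 of 10 had an unadjusted p under 0.05, against 22.6%. HFD libraries serve in both comparisons that name HFD and NFD libraries in both that name NFD, so the counts are not independent.

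**Figure D1:**
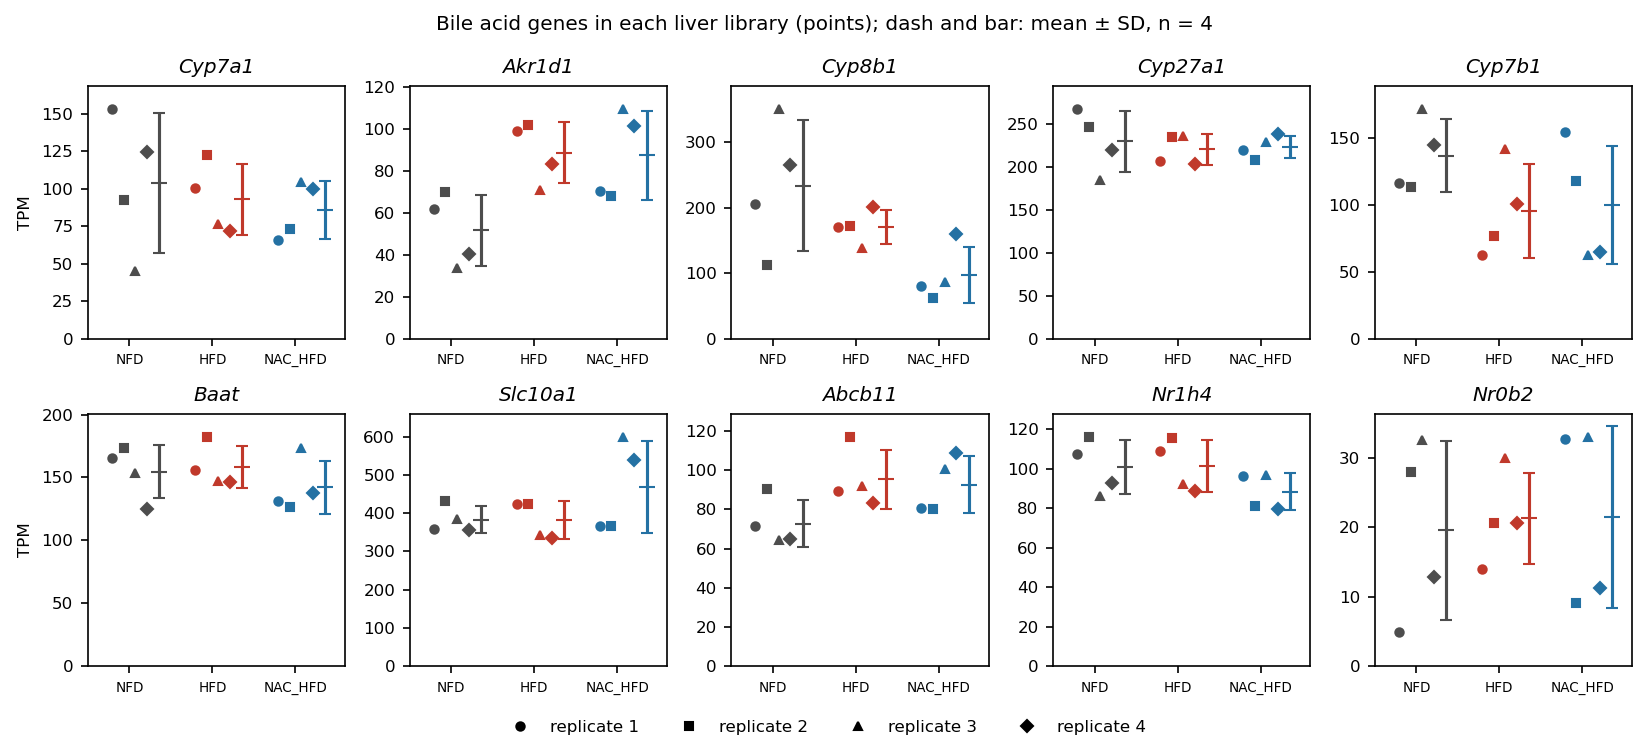
TPM of the 10 bile acid genes on the vertical axis in each library of the 3 groups, each axis from 0. Points are libraries, with the symbol giving the replicate number, and the dash and bar give mean ± SD (n = 4). Akr1d1 is the only gene whose HFD and NFD libraries do not overlap, and Nr0b2 and Cyp8b1 spread widely within groups.

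The median log2 fold change of the 10 genes was 0.00 in HFD against NFD, where all genes had a median of 0.01. It was -0.07 against -0.08 in NAC_HFD against HFD, and -0.07 against -0.07 in NAC_HFD against NFD. Groups did not overlap for 1 of the 10 genes, Akr1d1, in HFD against NFD, where 12.4% of all genes did not overlap. The share was 0 of 10 in both other comparisons, where 10.2% and 12% of all genes did not overlap.

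Cyp7a1 (ENSMUSG00000028240, chromosome 4: 6265612 to 6275632), the rate-limiting 7-alpha-hydroxylase of the classic route, was one of the more variable genes within groups. NFD libraries 1 to 4 gave 153, 92.3, 45.1 and 125 TPM. HFD libraries gave 101, 123, 76.4 and 71.8 TPM, and NAC_HFD libraries 65.6, 73.4, 105 and 99.8 TPM. NFD replicate 3 was the lowest and NFD replicate 1 the highest of all 12, and the groups overlapped throughout. Its log2 fold change was -0.06 (SE 0.33) in HFD against NFD, -0.11 (SE 0.33) in NAC_HFD against HFD and -0.16 (SE 0.33) in NAC_HFD against NFD, with limma adjusted p of 0.947, 0.907 and 0.804. Within-group SD on the log2 scale was 0.52, larger than that of 97.5% of tested genes.

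Cyp8b1 (ENSMUSG00000050445, chromosome 9: 121914356 to 121916305), the 12-alpha-hydroxylase that directs synthesis to cholic acid, gave the largest fitted difference among the 10 genes. NFD libraries had 205, 112, 350.4 and 265 TPM. HFD libraries had 170.3, 173, 139 and 201 TPM, and NAC_HFD libraries 80.8, 61.6, 86.7 and 160 TPM. NAC_HFD replicates 1, 2 and 3 lay below every HFD and NFD library, and NAC_HFD replicate 4 overlapped both groups. Group means were 233 ± 100, 171 ± 25.4 and 97.1 ± 43.0 TPM (SD, n = 4).

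For Cyp8b1 the log2 fold change in NAC_HFD against NFD was -1.23 (SE 0.34, limma adjusted p = 0.0614), a ratio of mean TPM of 0.416. In NAC_HFD against HFD it was -0.88 (SE 0.34, limma adjusted p = 0.236), and in HFD against NFD -0.35 (SE 0.34, limma adjusted p = 0.624). Without NFD replicate 2 the comparison of NAC_HFD with NFD gave an adjusted p of 0.0164, and without NAC_HFD replicate 4 it was 0.0370 (limma); the other 6 omissions did not pass, with up to 0.128 without NAC_HFD replicate 3. Using eBayes without trend and robust gave a limma adjusted p of 0.0442. Ratios of Cyp8b1 to Cyp7a1, on TPM, averaged 3.11 ± 3.13 in NFD, 1.93 ± 0.604 in HFD and 1.12 ± 0.368 in NAC_HFD; NFD replicate 3 alone stood at 7.77, and its Cyp8b1 was the highest of all libraries while its Cyp7a1 was the lowest.

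Cyp27a1 (ENSMUSG00000026170, chromosome 1: 74713148 to 74737897), the mitochondrial sterol 27-hydroxylase of the alternative route, had the lowest within-group SD of the 10 genes, 0.16 on the log2 scale. Its libraries spanned 185 to 267 TPM, and the log2 fold change lay between -0.05 and 0.02 (SE 0.11) in the 3 comparisons, with limma adjusted p of 0.858, 0.946 and 0.913. Its coding transcript carried 80.4 to 91.3% of its TPM; 2 further transcripts of the gene were listed among lncRNAs.

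Cyp7b1 (ENSMUSG00000039519, chromosome 3: 18071944 to 18243890), the oxysterol 7-alpha-hydroxylase of the alternative route, divided the HFD and NAC_HFD groups internally. NFD libraries gave 116, 114, 172 and 144 TPM. HFD libraries gave 62.3, 76.7, 142 and 101 TPM, and NAC_HFD libraries 154, 118, 62.7 and 64.9 TPM. HFD replicates 1 and 2 and NAC_HFD replicates 3 and 4 were the 4 lowest of 12, and the NFD group overlapped both. The division was not particular to Cyp7b1. Cyp7a1, Akr1d1, Baat and Slc10a1 divided the same libraries the other way. For each of them HFD replicates 1 and 2 were above 3 and 4, and NAC_HFD replicates 1 and 2 were below 3 and 4. The log2 fold change was -0.56 (SE 0.31, limma adjusted p = 0.365) in HFD against NFD, 0.03 (SE 0.31, adjusted p = 0.977) in NAC_HFD against HFD and -0.53 (SE 0.31, adjusted p = 0.342) in NAC_HFD against NFD.

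Genes known to be higher in male than in female mouse liver were set beside Cyp7b1, in a list of 14 chosen after these values were seen. All 14 were tested and their mean log2(TPM + 1) was 8.57, 8.54, 8.50 and 8.41 in NFD, 7.33, 7.57, 8.54 and 8.31 in HFD, and 8.52, 8.57, 7.58 and 7.77 in NAC_HFD. The same 4 libraries were lowest for the list mean and for Cyp7b1. Gene by gene the list was mixed: HFD replicates 1 and 2 were both below HFD replicates 3 and 4 for 11 of 14 genes, NAC_HFD replicates 3 and 4 were both below NAC_HFD replicates 1 and 2 for 9, and 8 genes did both. Cyp4a12a and Ugt2b38 divided in neither way. The share of all tested genes that divided in these ways was not computed, so these counts have no background to be read against. The part of these genes in the Cyp7b1 values was not tested.

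**Figure D2:**
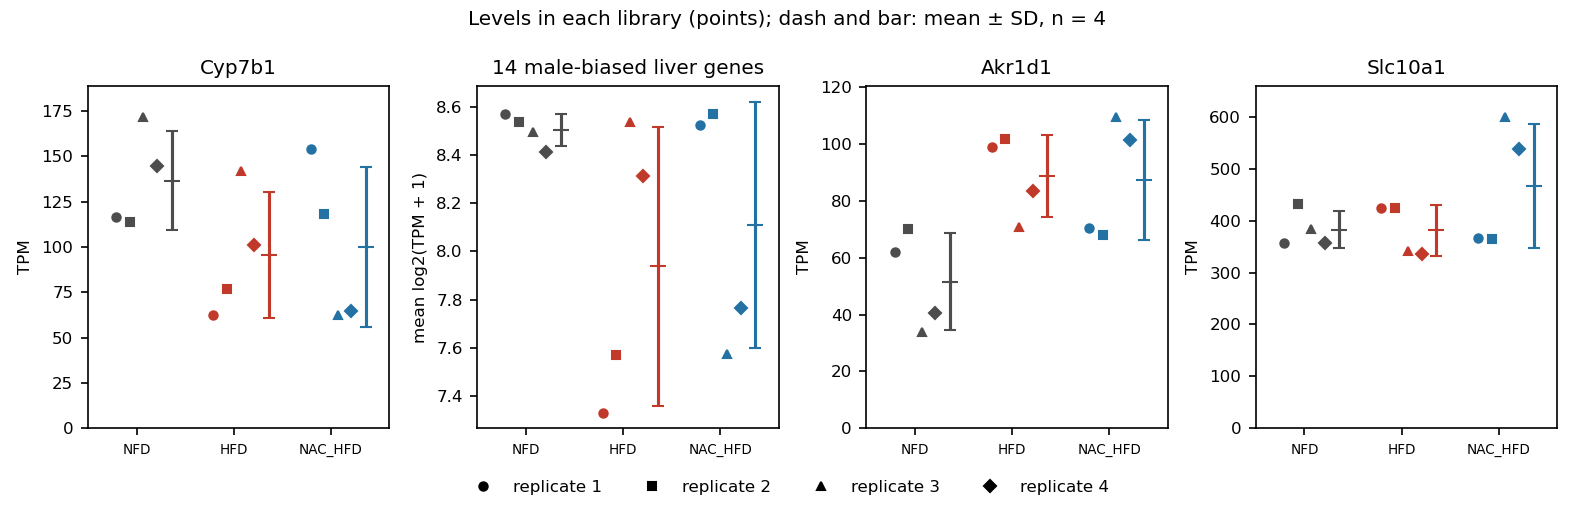
Levels of Cyp7b1, the mean of 14 male-biased liver genes, Akr1d1 and Slc10a1 in each library, on TPM axes from 0 except for the list mean on log2(TPM + 1). Points are libraries, symbols give the replicate number, and the dash and bar give mean ± SD (n = 4). HFD replicates 1 and 2 and NAC_HFD replicates 3 and 4 were low for Cyp7b1 and the list, while Akr1d1 reached 99.0 to 109 TPM there.

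Akr1d1 (ENSMUSG00000038641, chromosome 6: 37529978 to 37574921), the 5-beta-reductase of both routes, was the gene whose HFD and NFD libraries did not overlap. NFD libraries gave 61.9, 70.0, 33.9 and 40.5 TPM. HFD libraries gave 99.0, 102, 70.9 and 83.3 TPM, and NAC_HFD libraries 70.6, 67.9, 109 and 101 TPM. HFD replicate 3 exceeded the highest NFD library by less than 1 TPM, and the NAC_HFD group overlapped NFD through replicate 2. Its log2 fold change was 0.82 (SE 0.23, limma adjusted p = 0.0800) in HFD against NFD, with a ratio of mean TPM of 1.72. Against NFD, NAC_HFD gave 0.78 (SE 0.23, adjusted p = 0.0708), and in NAC_HFD against HFD -0.04 (SE 0.23, adjusted p = 0.951). Without NFD replicate 2 the first 2 of these gave limma adjusted p of 0.0440 and 0.0363. No other omission passed, with up to 0.202 without HFD replicate 1 and 0.164 without NAC_HFD replicate 3. With median-of-ratios scaling or quantile normalization the comparison of NAC_HFD with NFD gave limma adjusted p of 0.0436 and 0.0440.

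Baat (ENSMUSG00000039653, chromosome 4: 49489416 to 49507915), which joins bile acids to taurine, held between 125 and 182 TPM. Baat had log2 fold changes of 0.04, -0.16 and -0.12 (SE 0.13) in the 3 comparisons, with limma adjusted p of 0.906, 0.565 and 0.612. Baat libraries overlapped between all groups.

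Abcb11 (ENSMUSG00000027048, chromosome 2: 69238282 to 69342616), the bile salt export pump of the canalicular membrane, had 71.5, 90.2, 64.6 and 64.7 TPM in NFD. HFD libraries had 89.1, 117, 91.8 and 83.1 TPM, and NAC_HFD libraries 80.7, 80.0, 100.3 and 109 TPM. NFD replicate 2 alone placed the NFD group in overlap with the others. Its log2 fold change was 0.39 (SE 0.14, limma adjusted p = 0.163) in HFD against NFD, -0.04 (SE 0.14, adjusted p = 0.914) in NAC_HFD against HFD and 0.34 (SE 0.14, adjusted p = 0.170) in NAC_HFD against NFD. Transcript ENSMUST00000102710 carried 76.8 to 85.8% of Abcb11 TPM.

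Slc10a1 (ENSMUSG00000021135, chromosome 12: 80953185 to 80968705), the sodium-dependent bile acid uptake carrier NTCP, was the most abundant of the 10 genes. NFD libraries had 358, 433, 385 and 357 TPM, HFD libraries 424, 425, 342 and 335 TPM, and NAC_HFD libraries 367, 365, 599 and 538 TPM. NAC_HFD replicates 3 and 4 were above all other libraries and NAC_HFD replicates 1 and 2 lay among the NFD and HFD libraries. Slc10a1 differed by a log2 fold change of -0.01 (SE 0.16) in HFD against NFD, 0.27 (SE 0.16) in NAC_HFD against HFD and 0.26 (SE 0.16) in NAC_HFD against NFD, with limma adjusted p of 0.983, 0.423 and 0.363.

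One transcript of Slc10a1 stood apart from the gene's total. ENSMUST00000218162 gave 98.6, 125, 77.4 and 73.3 TPM in NFD, with HFD libraries at 87.3, 124, 72.6 and 81.7 TPM and NAC_HFD libraries at 82.5, 162, 241 and 218 TPM. NAC_HFD replicate 1 was inside the HFD range and the 3 other NAC_HFD libraries lay above it. The share of Slc10a1 TPM it carried was 24.3 ± 4.59% in NFD libraries. It was 23.9 ± 3.98% in HFD and 36.9 ± 9.81% in NAC_HFD (SD, n = 4).

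The authors' deposited tables list 942 mRNA and 1075 lncRNA transcripts for NAC_HFD over HFD, and 1110 and 789 for HFD over NFD. This transcript is the only one of the 10 genes among them. The table of NAC_HFD over HFD gives it a fold of 2.07, a log2 fold of 1.05 and the authors' adjusted p of 0.0470. In a limma fit over 28207 transcripts, added after the values were seen, the log2 fold change was 0.86 (SE 0.31, adjusted p = 0.286). That fit called 0.28% of transcripts in HFD against NFD, 0.0177% in NAC_HFD against HFD and 1.34% in NAC_HFD against NFD, and 0 transcripts of the 10 genes. The main Slc10a1 transcript, ENSMUST00000095572, had a log2 fold change of -0.01 (SE 0.16, adjusted p = 0.992) in the same fit.

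**Figure D3:**
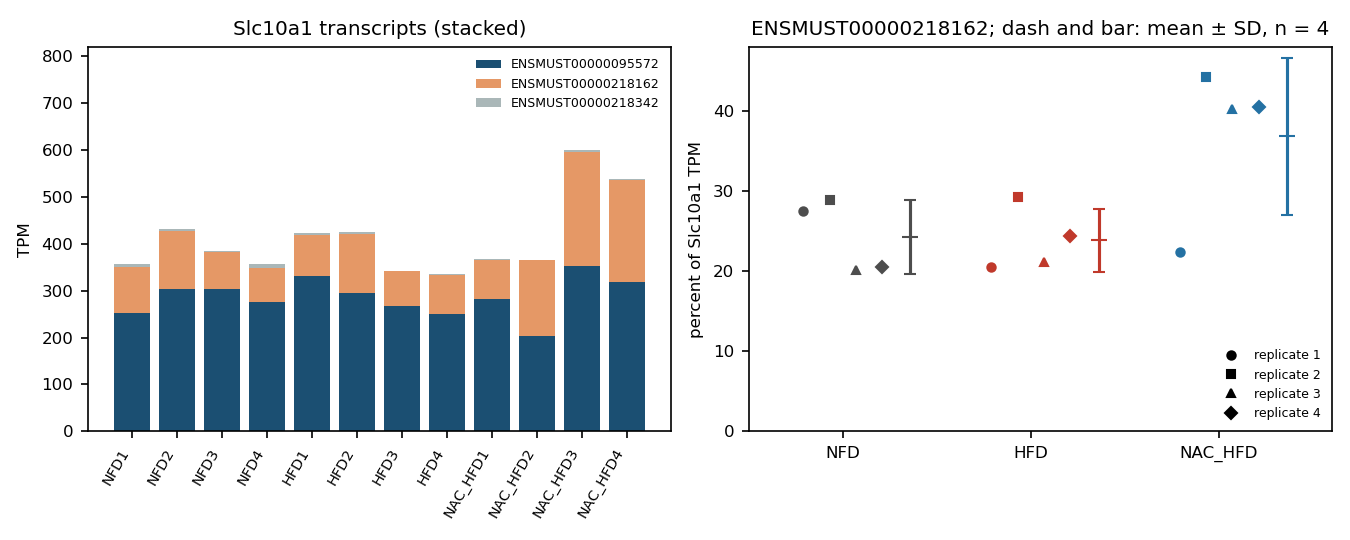
Slc10a1 transcripts by library: stacked TPM of 3 transcripts on the left, and on the right the percent of Slc10a1 TPM carried by ENSMUST00000218162. Points are libraries and the dash and bar give mean ± SD (n = 4); NAC_HFD replicates 2, 3 and 4 lie at 40.3 to 44.3%, above all other libraries.

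Nr1h4 (ENSMUSG00000047638, chromosome 10: 89454234 to 89533645), the gene of FXR, was even across groups, between 79.4 and 116 TPM. Its log2 fold change was 0.01, -0.19 and -0.18 (SE 0.12) in the 3 comparisons, with limma adjusted p of 0.976, 0.445 and 0.398. Its within-group SD exceeded that of 49.3% of tested genes. Transcript ENSMUST00000058126 carried 46.9 to 63.7% of its TPM and ENSMUST00000105297 30.8 to 42.0%.

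Nr0b2 (ENSMUSG00000037583, chromosome 4: 133553376 to 133556686), the FXR target that encodes SHP, was the lowest of the 10 genes and the most variable. NFD libraries gave 4.96, 27.9, 32.6 and 12.9 TPM. HFD libraries gave 14.1, 20.7, 30.0 and 20.7 TPM, and NAC_HFD libraries 32.7, 9.18, 33.0 and 11.2 TPM. Libraries of NFD and NAC_HFD were split into high and low values within a group. Its within-group SD, 0.89 on the log2 scale, exceeded that of 99.4% of tested genes. Nr0b2 had log2 fold changes of 0.36 (SE 0.60), -0.15 (SE 0.60) and 0.21 (SE 0.60), with limma adjusted p of 0.785, 0.928 and 0.867.

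**Figure D4:**
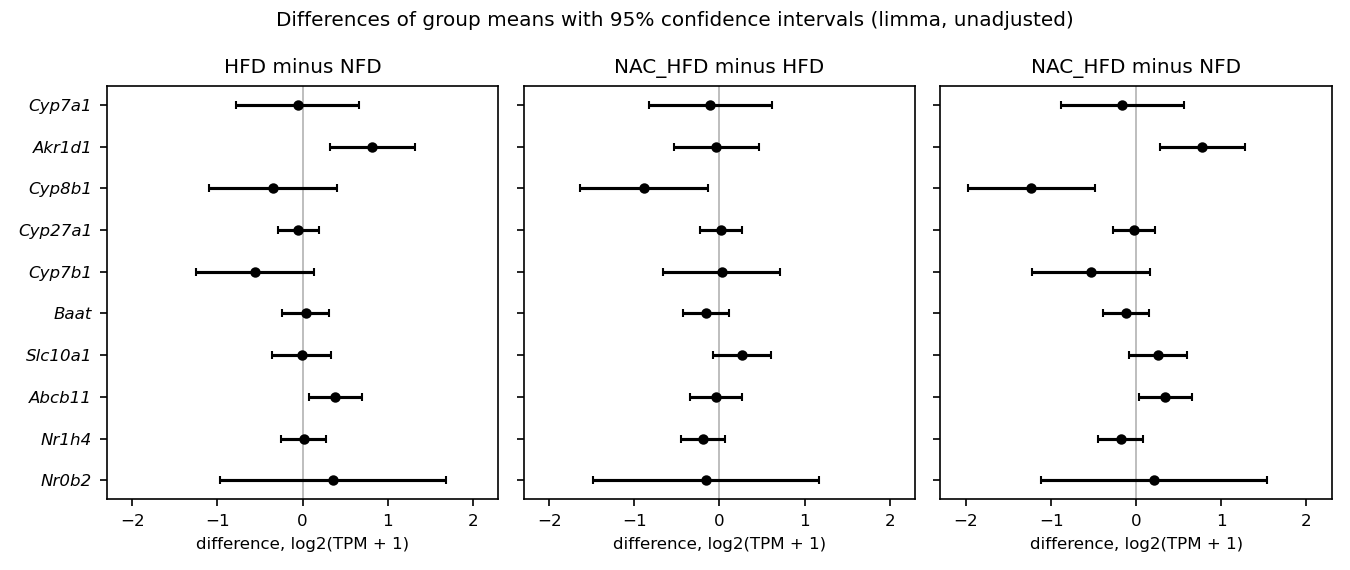
Differences of group means on log2(TPM + 1), horizontal axis, for the 10 genes in 3 comparisons. Points are limma estimates and bars 95% confidence intervals not adjusted for the number of genes. Intervals leave 0 for Akr1d1 and Abcb11 in HFD and in NAC_HFD against NFD, and for Cyp8b1 in NAC_HFD against HFD and NFD; none of these passed the adjusted test.

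FXR, SHP and the hydroxylases are joined in 1 pathway, and 6 pairs of the genes were compared over the 12 libraries. Nr0b2 and Cyp7a1 had Pearson r = -0.58 (permutation p = 0.0485, adjusted over 6 pairs 0.291) and Spearman rho = -0.45 (permutation p = 0.142, adjusted 0.593). Without NFD replicate 1 and NAC_HFD replicate 2, the libraries farthest from the Nr0b2 median, r was -0.58 (permutation p = 0.0794, adjusted 0.340). NFD replicate 3, with the lowest Cyp7a1 level, stayed in. For deviations from the group means r was -0.59. NFD replicate 1 paired the highest Cyp7a1 level with the lowest Nr0b2 level. No other pair had a permutation p under 0.05, and none of the 6 passed adjustment.

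The other genes of the pathway came from a list of 58 genes of synthesis, conjugation, transport and regulation, of which 54 were matched and 47 tested. In HFD against NFD 3 of 47 rose and 0 fell, and the median log2 fold change was 0.21 against 0.01 for all genes, of which 2.19% rose and 0.589% fell. Libraries did not overlap for 14 of 47, all higher in HFD, against 7.78% of all genes higher and 4.57% lower. With N-acetylcysteine against HFD alone 0 of 47 were called, the median was -0.07 against -0.08, and 1 of 47 was higher and 7 lower without overlap, against 1.56% and 8.66% of all genes. In NAC_HFD against NFD 5 of 47 rose and 2 fell, with a median of 0.12 against -0.07; of all genes 1.76% rose and 3.52% fell. Here 6 of 47 were higher and 4 lower without overlap, against 3.52% and 8.52% of all genes.

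Marker lists of other cells were set beside these counts. The gut list, of which 3 of 6 genes were matched, summed to 63.7 to 94.4 TPM in NFD, 116 to 140 TPM in HFD and 69.5 to 77.4 TPM in NAC_HFD, almost all of it Fabp2 and Lgals4, with the defining gene Vil1 at or near 0; Fabp2 rose in HFD against NFD (0.79, SE 0.17, limma adjusted p = 0.0296). The 8 cholangiocyte and gallbladder genes summed to 20.7 to 33.2, 35.2 to 39.3 and 23.5 to 30.6 TPM in NFD, HFD and NAC_HFD, mostly Spp1 and the bile acid carrier Slc10a2. Sox9 went the other way in HFD, at 1.48 to 1.68, 0.94 to 1.26 and 0.83 to 1.33 TPM (HFD against NFD, limma adjusted p = 0.191). Mean Krt19 and Epcam were also lower in HFD than in NFD, and Krt7 and Muc1 higher, all under 1 TPM. The 7 pericentral hepatocyte genes summed to 7011 to 8385 TPM in NFD, 7756 to 9310 TPM in HFD and 10229 to 11309 TPM in NAC_HFD, where every library lay above the other groups, mostly through Cyp2e1. Cyp2e1 rose by 0.61 (SE 0.11, limma adjusted p = 0.00816) in NAC_HFD against NFD. Lect2 rose by 0.995 (SE 0.10, limma adjusted p = 0.000324) in HFD and by 0.66 (SE 0.10, adjusted p = 0.00601) in NAC_HFD, both against NFD. The other 5 were not called and were mixed. In NFD, HFD and NAC_HFD mean Oat was 411, 325 and 199 TPM, Rhbg 3.5, 4.2 and 2.8 TPM, and Cyp1a2 309, 230 and 288 TPM. Mean Glul was 506, 573 and 542 TPM, and Slc1a2 80.6, 76.4 and 78.9 TPM. As means of log2(TPM + 1) over the 7 genes, 7.47 to 7.69, 7.52 to 7.89 and 7.54 to 7.70 in the 3 groups, the list overlapped. The 6 periportal genes summed to 1469 to 2372, 1907 to 2421 and 1869 to 2755 TPM, with overlap and none called. The 5 Kupffer cell genes summed to 37.0 to 71.3, 51.3 to 131 and 34.8 to 65.0 TPM, with overlap. All 5 had higher mean TPM in HFD than in NFD, with ratios of 1.47 to 1.75. All 5 were lower in NAC_HFD than in HFD, with ratios of 0.549 to 0.611, and none was called in either comparison. For the 10 clock genes, whose RNA follows the time of day as that of Cyp7a1 is known to do, the mean log2(TPM + 1) lay between 3.77 and 4.44, lowest in NAC_HFD replicate 1. These genes peak at different times, and single ones differed: Per2 fell by 0.53 (SE 0.12, limma adjusted p = 0.0243) in NAC_HFD against NFD, and Nr1d1 ranged from 10.8 to 56.7 TPM over the libraries. Within HFD and within NAC_HFD, Nr1d1 and Ciart were lower in replicates 1 and 2 than in 3 and 4. Nr1d1 had 16.75, 15.13, 29.35 and 17.14 TPM in HFD and 10.82, 11.76, 43.67 and 41.92 TPM in NAC_HFD. Arntl went the other way in both groups, and the other clock genes did not divide both groups like this. The part of these lists in the results was not tested.

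Nr1i2, the gene of the pregnane X receptor, which senses bile acids and drugs, rose in both high fat diet groups. NFD libraries had 19.6, 28.0, 18.9 and 21.1 TPM, HFD libraries 33.8, 34.7, 36.7 and 34.6 TPM, and NAC_HFD libraries 35.2, 30.3, 34.0 and 33.5 TPM. Every library of both groups lay above every NFD library. The log2 fold change was 0.67 (SE 0.11, limma adjusted p = 0.00854) in HFD and 0.59 (SE 0.11, adjusted p = 0.0116) in NAC_HFD, both against NFD.

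Abcg5 and Abcg8, whose products together export cholesterol into bile, had overlapping gene spans on chromosome 17 (84658174 to 84683011 and 84676302 to 84700333), and no source used here says how reads of the overlap were assigned. Abcg8 rose by 0.70 (SE 0.17, limma adjusted p = 0.0450) in HFD against NFD, and by 0.91 (SE 0.17, adjusted p = 0.0118) in NAC_HFD against NFD. Abcg5 rose by 0.69 (SE 0.16, adjusted p = 0.0247) in NAC_HFD against NFD; in HFD its log2 fold change was 0.60 (SE 0.16, adjusted p = 0.0560). Akr1c6, a hydroxysteroid dehydrogenase with close paralogs, rose by 0.67 (SE 0.17, adjusted p = 0.0464) in HFD against NFD. The Abcg8 call of HFD against NFD was lost without any 1 of the 8 libraries, with adjusted p from 0.0587 to 0.123, and the Akr1c6 call without 6 of 8 (NFD replicates 3 and 4 and each HFD library), with adjusted p up to 0.124.

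Por, the electron donor of microsomal cytochromes P450, rose by 0.71 in NAC_HFD against NFD (SE 0.13, limma adjusted p = 0.00965), and the sulfotransferase gene Sult2a8 by 0.47 (SE 0.12, adjusted p = 0.0413). Fdxr, which passes electrons to mitochondrial P450 enzymes such as Cyp27a1, fell by 0.42 on the log2 scale (SE 0.10, adjusted p = 0.0258), and Fgfr4, the receptor through which intestinal FGF15 acts on hepatocytes, fell by 0.41 (SE 0.10, adjusted p = 0.0331). Leaving out 1 of the 8 libraries ended the Sult2a8 call except for NFD replicate 1 or NAC_HFD replicate 2, and the Fgfr4 call except for NFD replicate 4 (limma adjusted p up to 0.113 and 0.0855). The Fdxr call was lost without NFD replicates 1 or 3 or NAC_HFD replicates 1 or 4 (adjusted p up to 0.0739). The Abcg5 call was lost without NFD replicates 1 or 3 or NAC_HFD replicates 3 or 4 (adjusted p up to 0.0651). In NAC_HFD against HFD the smallest p-values were those of Nr1i3, the constitutive androstane receptor (-0.87, SE 0.17, adjusted p = 0.0522), Abcb4, the phospholipid exporter (-0.44, SE 0.11, adjusted p = 0.0905), and Mafg, an FXR-induced repressor (-0.39, SE 0.10, adjusted p = 0.0972), and none passed.

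**Figure D5:**
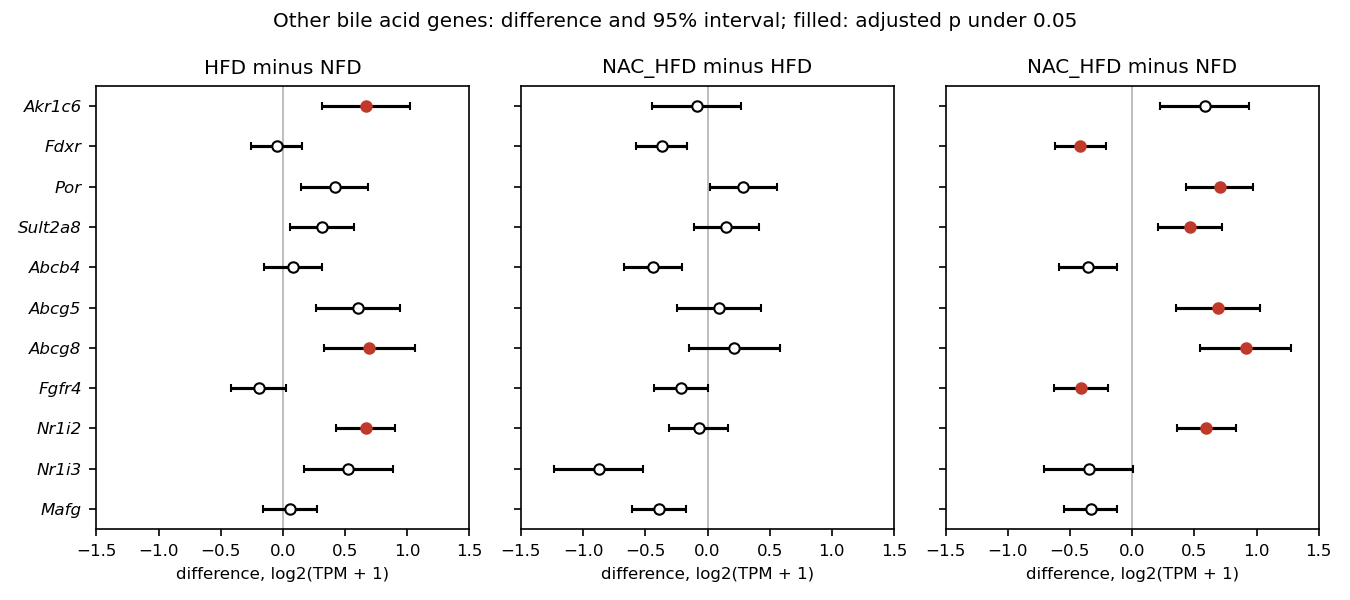
Differences of group means on log2(TPM + 1), horizontal axis, with 95% confidence intervals for 11 other bile acid genes in 3 comparisons. Filled points passed an adjusted p of 0.05 in limma and open points did not; Nr1i2 and Abcg8 are filled in both comparisons with NFD.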

How the data were processed

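Liver RNA was measured in 12 libraries, and groups and replicate numbers come from the sample labels. TPM per gene and per transcript were made by the authors; the submitters' processing notes name fastp, HISAT, RSEM and build GRCm38, and no version or setting is given there. The authors' deposited comparison tables hold, per the file headers, fold changes as ratios, log2 fold changes and p-values with adjusted p-values; no source used here names their test, and no fit used them. TPM keeps no depth, so depth is unknown and no counting interval is given.

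Genes reaching 1 TPM in 4 or more libraries were tested. On log2(TPM + 1), limma 3.58.1 fitted the 3 group means in 1 model of all 12 libraries (eBayes with trend and robust, R 4.3.3, 9 residual degrees of freedom). Tests were two-sided, with Benjamini-Hochberg adjustment over all genes tested in each comparison and a threshold of 0.05. A fold change on this scale understates that of low genes. Correlations used 100000 resamples (scipy 1.17.1).

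The 10 genes, the list of 58 other pathway genes and the tests were chosen with earlier results of these data known. Genes named from that list are those called in any comparison and, per comparison, the 3 of smallest p. Cyp2c70, genes named from marker lists and the male-biased list were added after values were seen. Positions and promoters are RefSeq's on GRCm38.p6; positions matched 10 of 10 genes and promoters 7. Alternatives tried were the pseudocount (0.1 and 5), the filter (none, or 5 TPM), 3 scalings, the eBayes options, fits of 2 groups only, a replicate block, and leaving out each library.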

Additional observations from a re-analysis of the deposited data

Results flagged for a closer look

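Fdxr, which supplies electrons to mitochondrial P450 enzymes, stood at 7.21 TPM in NFD replicate 1, apart from 6.30 to 6.44 TPM in the other 3 NFD libraries. It was the only one of 66 groups (22 genes in 3 groups of 4) in which the highest or lowest library was separated from the others by more than Dixon's 95% critical value for its range. Chance flags about 1 in 20 groups.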

How the results depend on the processing

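Of 300 fold changes of the 10 genes under 10 settings, 286 kept direction and side of the threshold, 10 changed sign and 4 passed. Those 4 were in NAC_HFD against NFD, where 1 of the 10 genes was called under each of median-of-ratios scaling (Akr1d1, limma adjusted p = 0.0436), quantile normalization (Akr1d1, 0.0440), eBayes without trend and robust (Cyp8b1, 0.0442) and the replicate block (Cyp8b1, 0.0404). The cause was not tested. Leaving out 1 library called 0 to 1 of the 10 genes in HFD against NFD (Akr1d1 without NFD replicate 2), and 0 to 2 in NAC_HFD against NFD (Akr1d1 and Cyp8b1 without NFD replicate 2, Cyp8b1 without NAC_HFD replicate 4). Depth limits cannot be given, since TPM keeps none.

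The signs that changed with a setting were those of genes not called in the comparison concerned. In HFD against NFD Nr1h4 was at -0.0044 with median-of-ratios scaling, -0.049 with quantile normalization and -0.022 after rescaling within the gene table, and Baat at -0.022 with quantile normalization. In NAC_HFD against HFD median-of-ratios scaling gave 0.058 for Abcb11, 0.061 for Akr1d1, 0.013 for Akr1c6 and 0.027 for Nr1i2, and quantile normalization 0.048 for Abcb11, 0.054 for Akr1d1 and 0.0023 for Nr1i2. Against NFD, NAC_HFD had Cyp27a1 at 0.058 and 0.012 under these 2 scalings.

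Leaving out 1 library turned the sign of these log2 fold changes, given with their ranges. In HFD against NFD they were -0.41 to 0.17 for Cyp7a1, -0.15 to 0.029 for Cyp27a1, -0.065 to 0.0496 for Slc10a1, -0.0601 to 0.082 for Nr1h4, -0.14 to 0.69 for Nr0b2, -0.0596 to 0.10 for Baat and -0.0094 to 0.14 for Mafg. In NAC_HFD against HFD they were -0.22 to 0.038 for Cyp7a1, -0.017 to 0.056 for Cyp27a1, -0.21 to 0.24 for Cyp7b1, -0.12 to 0.0596 for Abcb11, -0.42 to 0.16 for Nr0b2, -0.16 to 0.0701 for Akr1d1 and -0.054 to 0.21 for Abcg5. Between NAC_HFD and NFD they were -0.51 to 0.066 for Cyp7a1, -0.13 to 0.051 for Cyp27a1 and -0.29 to 0.54 for Nr0b2. Without a change of sign, values of the 10 genes moved by over 1.5 times for Cyp8b1 in HFD against NFD (-0.66 to -0.11), for Slc10a1 (0.14 to 0.37), Nr1h4 (-0.25 to -0.13) and Baat (-0.26 to -0.088) in NAC_HFD against HFD, and for Cyp7b1 (-0.77 to -0.34), Slc10a1 (0.13 to 0.36), Nr1h4 (-0.25 to -0.11) and Baat (-0.22 to -0.061) between NAC_HFD and NFD.

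In HFD against NFD 316 genes were called, 168 without the filter, and 90 to 298 when 1 library was left out (142 without NFD replicate 1, 90, 129 and 97 without HFD replicates 1, 2 and 4). Of the 47 other bile acid genes, where 3 were called, 1 was called without the filter, after rescaling, without trend and robust, and with the replicate block, 5 in a fit of the 2 groups, and 1 to 5 without 1 library. In NAC_HFD against HFD 0 genes were called (1870 at an unadjusted p under 0.05), 24 with a pseudocount of 5, 3 with the replicate block, and 0 to 64 without 1 library (23 without HFD replicate 3, and 64, 2 and 3 without NAC_HFD replicates 1, 2 and 3); of the other bile acid genes 0 to 1 was called, the 1 being Nr1i3 without NAC_HFD replicate 3 (limma adjusted p = 0.0362). Between NAC_HFD and NFD 601 genes were called, 289 without the filter, 188 in a fit of the 2 groups, and 211 to 618 without 1 library (252 and 295 without NFD replicates 1 and 3, 243 and 211 without NAC_HFD replicates 3 and 4). Of the other bile acid genes 7 were called there, 4 without the filter, 3 in a fit of the 2 groups, and 3 to 6 without 1 library.

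By gene, with limma adjusted p, the HFD against NFD call of Akr1c6 ended without the filter (0.0957), after rescaling (0.0551), without trend and robust (0.0524), in a fit of the 2 groups (0.0733) and with the replicate block (0.0797). That of Abcg8 ended with a pseudocount of 5 (0.0517), without the filter (0.0957), with median-of-ratios scaling (0.0526), after rescaling (0.0620), without trend and robust (0.0531) and with the replicate block (0.0756). Between NAC_HFD and NFD the calls that ended were those of Sult2a8 (0.0723), Abcg5 (0.0564) and Fgfr4 (0.0571) without the filter, Fgfr4 with median-of-ratios scaling (0.0557), Sult2a8 with quantile normalization (0.0649), Fdxr (0.0745), Sult2a8 (0.108), Abcg5 (0.0796) and Fgfr4 (0.0747) in a fit of the 2 groups, and Fdxr (0.0504) and Sult2a8 (0.0849) with the replicate block. Calls gained were Abcg5 with quantile normalization (0.0484) and in a fit of the 2 groups (0.0326), Nr1i3 in the latter (0.0402), all in HFD against NFD, and Akr1c6 between NAC_HFD and NFD with median-of-ratios scaling (0.0317).

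Genes called in HFD against NFD were higher in 78.8% of cases, and in 71.0% with median-of-ratios scaling, 61.8% with quantile normalization and 65.3% after rescaling. For NAC_HFD against NFD the share was 33.3%, then 59.6%, 51.6% and 26.8%.

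Libraries of the same replicate number did not deviate together (r of -0.17 to 0.18 over 12 pairs, 2 over 0.1, and 2 libraries closest to their own number), so the numbers were not taken as pairs; the replicate block gave 225, 3 and 406 genes in the 3 comparisons. Among the correlations of gene pairs, Cyp7a1 with Cyp8b1 was at -0.11 for deviations from the group means. Without 2 samples Nr1h4 was at -0.11 with Nr0b2 and -0.14 with Abcb11, and deviations gave 0.53 for Nr1h4 with Abcb11.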

Other observations

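Cyp2c70, the mouse enzyme that makes muricholic acids from chenodeoxycholic acid, was singled out after its values were seen. NFD libraries had 367, 383, 126 and 210.2 TPM, HFD libraries 173, 168, 214 and 125 TPM, and NAC_HFD libraries 673, 819, 282 and 258 TPM. Every NAC_HFD library lay above every HFD library, as did 1.56% of all tested genes. The log2 fold change was 1.42 (SE 0.45, limma adjusted p = 0.173), which did not pass. The levels in NAC_HFD replicates 1 and 2 were above those in replicates 3 and 4, as were those of Cyp7b1, at 154 and 118 against 62.7 and 64.9 TPM. The other groups did not share this likeness. In NFD replicates 1 and 2 were above replicates 3 and 4 for Cyp2c70 and below them for Cyp7b1. In HFD the highest library was replicate 3 for both genes, and the lowest was replicate 4 for Cyp2c70 and replicate 1 for Cyp7b1. Cyp2c70 has close paralogs, and no source used here says how reads were divided among them.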
